A study of Drosophila melanogaster with 12 samples.

Results

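The genes described here were those that differed most between biological repeats of the same treatment in SL2 cells, a macrophage-like hemocyte line of Drosophila melanogaster. They were chosen by measured values: among 7194 probe sets whose log2 level averaged 6 or more over the 12 arrays, the 200 with the largest pooled SD within groups were taken, and 9 of them, which belong to the Hsp, Pxn and Nim families, were then left out. This gave 191 of the 18769 non-control probe sets. Of these, 164 are annotated to 1 gene (160 genes in all), 5 to several genes and 22 to none, and a probe set of the last kind is called unnamed. All SDs and co-variation below describe the values used for the choice, so no test is attached to them.

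Cells were cultured for 4 days with 12.5 µg/ml of double-stranded RNA against Tis11 or, as the control, against GFP, and each kind of culture was collected either without further treatment or after 4 h with 10 µg/ml LPS. The 4 groups, GFP dsRNA, GFP dsRNA + LPS, Tis11 dsRNA and Tis11 dsRNA + LPS, comprised 3 biological repeats each, all of 1 cell line, and every repeat was hybridised to 1 Affymetrix Drosophila Genome 2.0 array. Tis11 is the fly member of the tristetraprolin family, whose zinc finger proteins bind AU-rich elements and speed the decay of mRNAs. GFP does not occur in fly cells, so dsRNA against it triggers RNA interference without a target. No probe set is annotated to Tis11 in the table used here, so its depletion (kd) was not analysed.

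Flies store carbohydrate as glycogen, clear foreign and oxidised compounds with cytochrome P450 enzymes and glutathione S-transferases, and fold secreted proteins with chaperones of the endoplasmic reticulum (ER), and genes of all these kinds are known to be inducible. Hemocytes of the fly comprise plasmatocytes, which engulf particles and deposit matrix, crystal cells, which store the prophenoloxidases that make melanin, and lamellocytes, which form during parasite attack. SL2 cells are usually described as plasmatocyte-like. The plasmatocyte genes eater, NimC1 and Col4a1 had mean log2 levels of 10.05, 9.71 and 11.70 here, srp, the GATA factor of blood cells, 10.58, and Hml 7.2, whereas the neuronal genes elav and nSyb had 5.76 and 5.06, near the array medians of 5.05 to 5.22.

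The pooled SD of the 191 probe sets ranged from 0.82 to 2.53, with a median of 0.99, against a median of 0.26 for the other 6994 probe sets outside the 200. An SD of 0.99 on the log2 scale is a 1.99-fold change and one of 2.53 a 5.8-fold change. Of the 191, 91 had an SD of at least 1 and 20 one of at least 1.5. The last inside the limit were sdt, CG2930 and Sgsh with SDs of 0.821, 0.821 and 0.816, and the first outside were Ant2, Hmgs and p130CAS with 0.816, 0.814 and 0.814, so nothing separates the 2 sides. Mean levels of the 191 ranged from 6.02 to 11.61, with a median of 7.93 against 8.37 for the others. A mean between 6 and 7 was present in 25.7% of them against 17.9% of the others. The part of low signal in the spread was not tested. Probe sets whose name ends in _s_at or _x_at made up 15.7% of the 191 and 16.4% of the others, and the share without a gene was 11.5% against 9.9%.

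**Figure D1:**
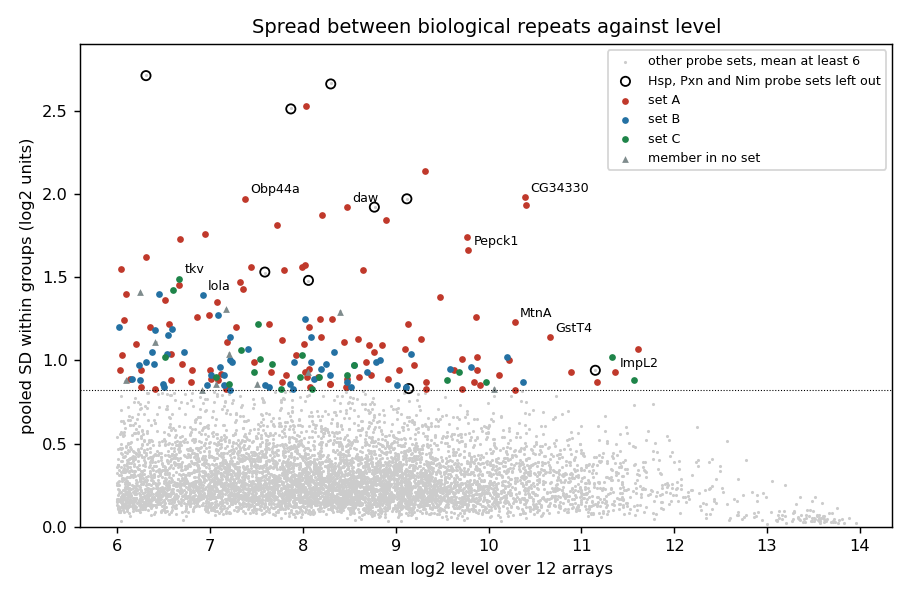
Pooled SD within groups (y axis, log2 units) against the mean log2 level over 12 arrays (x axis) for the 7194 probe sets averaging at least 6. Coloured points are the 191 probe sets by co-varying set, open circles the 9 left out, grey points the rest, and the dotted line marks the lowest SD of the 191. High SDs occur over the whole range of levels from 6.02 to 11.61.

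Variation between repeats was shared by nearly all of these genes. When each value was taken as its deviation from the mean of its group, a single component carried 77.6% of the sum of squares of the 191 probe sets and the next one 15.4%, 92.9% in all. Over all 7194 probe sets the same shares were 61.4% and 24.9%. Scores on the leading component, in log2 units for a typical member, were -0.98, -0.12 and 1.09 for replicates 1, 2 and 3 of GFP dsRNA, and -0.14, -0.98 and 1.12 for those of GFP dsRNA + LPS. For Tis11 dsRNA they were 0.99, -0.89 and -0.09, and for Tis11 dsRNA + LPS -0.11, 1.00 and -0.89. Each group thus held 1 array with a high score, 1 with a low score and 1 in between, but under different replicate numbers.

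The correlation of arrays over the members' deviations gave the same picture. For each array, the array of another group that resembled it most was looked up in the other 3 groups, and all 36 choices were mutual, so the 12 arrays fell into 3 sets of 4 with 1 array per group. GFP dsRNA replicate 3, GFP dsRNA + LPS replicate 3, Tis11 dsRNA replicate 1 and Tis11 dsRNA + LPS replicate 2 correlated with r of 0.88 to 0.97. GFP dsRNA replicate 1, GFP dsRNA + LPS replicate 2, Tis11 dsRNA replicate 2 and Tis11 dsRNA + LPS replicate 3 correlated with r of 0.63 to 0.97, and the remaining 4 arrays with r of 0.70 to 0.92. No pair of arrays outside these sets that came from different groups exceeded 0.25. The choices were the same over the 6994 probe sets outside the 200, with r of 0.42 to 0.91. Only 6 of the 36 choices shared a replicate number. These correlations run across genes, which are not independent replicates, and deviations within a group sum to 0, so 2 arrays of a group must oppose each other to some extent. The labels do not say whether an LPS culture was divided from a culture without LPS or which cultures were handled together.

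**Figure D2:**
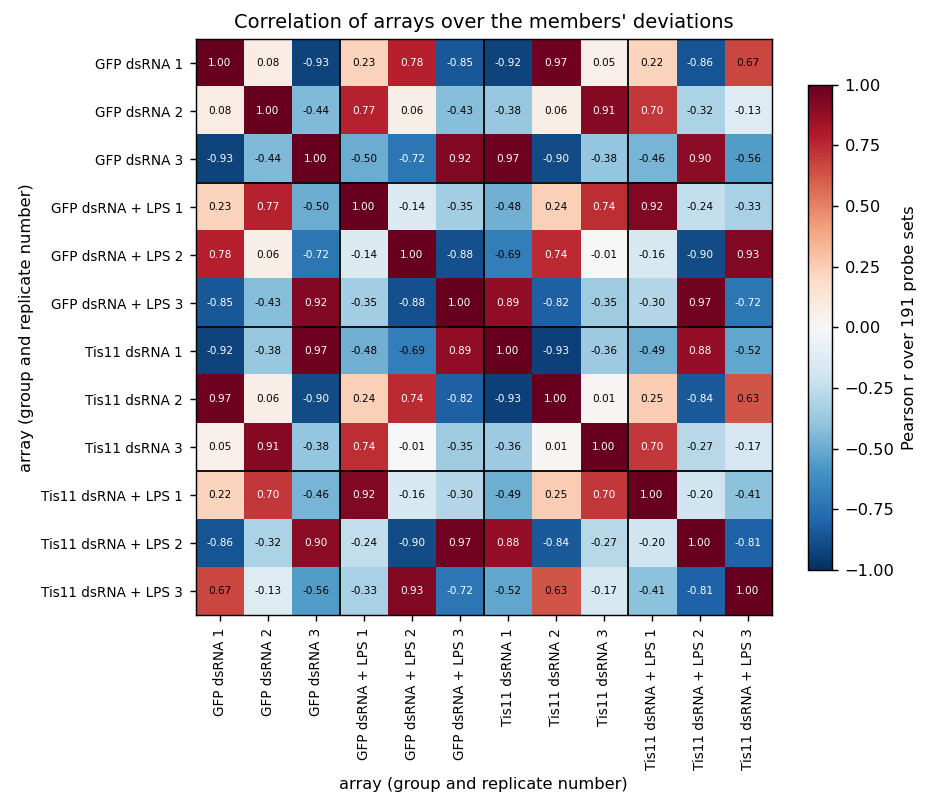
Pearson r between arrays (both axes, group and replicate number) over the deviations of 191 probe sets from their group means. Each array has 1 close partner in every other group, most often under another replicate number, for example GFP dsRNA 3 and Tis11 dsRNA 1 with r of 0.97.

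Member by member, 90 of the 191 (47.1%) were highest, within every group, on the array with the high score, and 40 (20.9%) on the array with the low score. Only 5 were highest on the intermediate array of every group. Of the 6994 other probe sets, 16.4%, 16.8% and 7.2% followed these patterns, and no member was highest on the same replicate number in all 4 groups. Clustering of the 191 by the correlation of their deviations separated 3 sets of 105, 53 and 22 probe sets, here called sets A, B and C, and left 11 probe sets in none. Within a set the median r between members was 0.88, 0.87 and 0.87. The mean deviations of sets A and B were nearly mirror images (r of -0.95), those of A and C had an r of -0.80 and those of B and C one of 0.60.

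**Figure D3:**
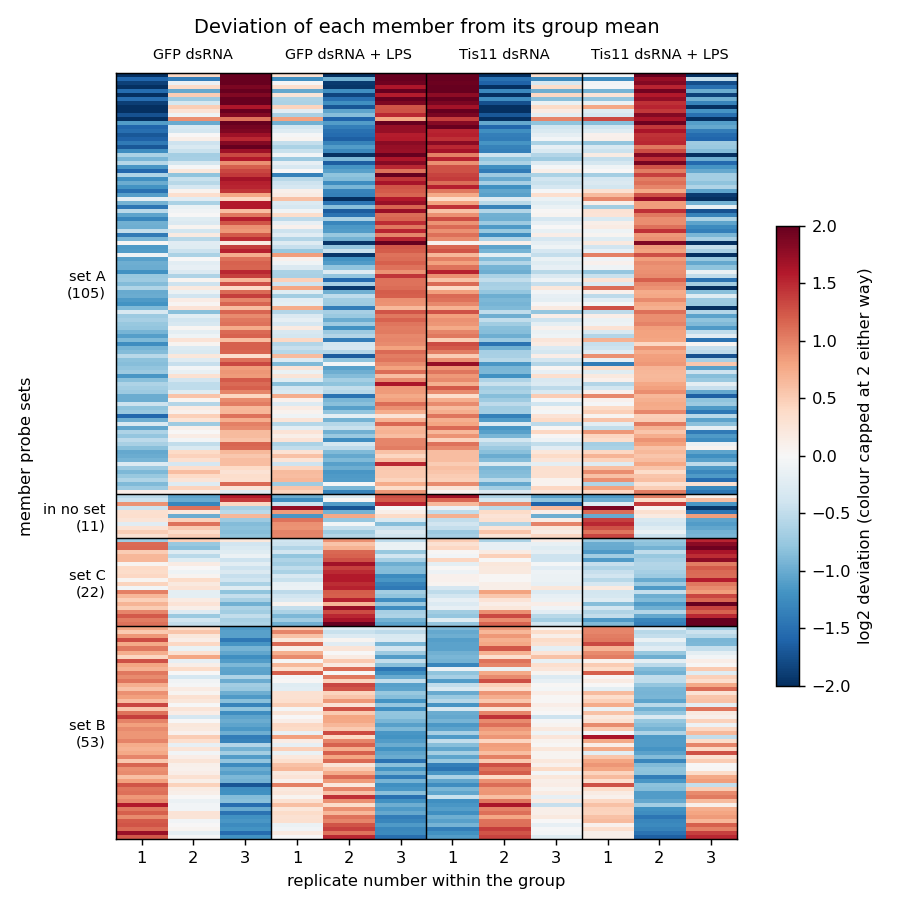
Deviation of each of the 191 probe sets (rows, grouped by set and ordered by their loading on the leading component) from its group mean on the 12 arrays (columns, by group and replicate number), in log2 units. Set A is high on 1 array per group, set B is low on those arrays, and set C is high mainly on GFP dsRNA + LPS replicate 2 and Tis11 dsRNA + LPS replicate 3.

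Set A held the genes that were high on the high-scoring arrays, 105 probe sets with SDs of 0.82 to 2.53. All 105 lay above the group mean on GFP dsRNA + LPS replicate 3, Tis11 dsRNA replicate 1 and Tis11 dsRNA + LPS replicate 2, and 104 did on GFP dsRNA replicate 3. Their median deviations there were 1.11, 0.97, 0.92 and 1.14. On the lowest arrays of the 4 groups, the median deviation was -0.96, -1.0, -0.90 and -1.02. Levels of single genes are given in the order replicate 1, 2 and 3 of each group.

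Glycogen and glucose metabolism was represented by several enzymes. Pepck1, phosphoenolpyruvate carboxykinase, which commits carbon to the making of glucose, had log2 levels of 8.04, 9.71 and 11.62 with GFP dsRNA, 9.98, 9.77 and 12.14 with GFP dsRNA + LPS, 10.95, 7.36 and 8.86 with Tis11 dsRNA, and 9.3, 11.46 and 8.15 with Tis11 dsRNA + LPS. Glyp, glycogen phosphorylase, which releases glucose units from glycogen, had log2 levels of 6.67, 8.36 and 10.05 with GFP dsRNA, 8.21, 6.7 and 9.81 with GFP dsRNA + LPS, 9.41, 6.49 and 7.68 with Tis11 dsRNA, and 7.61, 8.96 and 5.97 with Tis11 dsRNA + LPS. In both, the highest array of each group exceeded the lowest by more than 2 log2 units and the groups overlapped over most of their range. Gbs-70E, the subunit that directs protein phosphatase 1 to glycogen, had log2 levels of 6.37, 8.11 and 9.49 with GFP dsRNA, 7.87, 6.19 and 9.41 with GFP dsRNA + LPS, 9.24, 6.38 and 7.73 with Tis11 dsRNA, and 7.72, 9.09 and 6.04 with Tis11 dsRNA + LPS. Pgm1, which interconverts glucose phosphates at the branch to glycogen, Gyg, the glycogenin that primes new glycogen, and Pfk, phosphofructokinase, varied less, with SDs of 0.94, 0.94 and 0.84. Men, malic enzyme, a source of NADPH, had an SD of 0.87, and Gs2, a glutamine synthetase, one of 1.2. Of these genes, Glyp acts in the breakdown and Gyg in the making of glycogen. That all of them moved the same way between repeats follows from the clustering that formed set A.

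Enzymes of detoxification were present in set A as well. GstD2, a glutathione S-transferase, had log2 levels of 6.09, 6.35 and 8.6 with GFP dsRNA, 6.46, 6.28 and 8.79 with GFP dsRNA + LPS, 8.58, 6.25 and 6.35 with Tis11 dsRNA, and 6.61, 8.54 and 6.1 with Tis11 dsRNA + LPS. Its 4 high values, 1 in each group, stood 1.93 above the next highest array, and the other 8 arrays lay within 6.09 to 6.61. Cyp28d1, a cytochrome P450, had log2 levels of 6.66, 8.46 and 9.57 with GFP dsRNA, 8.65, 7.57 and 9.75 with GFP dsRNA + LPS, 9.06, 6.38 and 7.9 with Tis11 dsRNA, and 8.06, 9.07 and 7.02 with Tis11 dsRNA + LPS, a graded pattern in which the intermediate arrays lay between the extremes. Cyp4p1, Cyp6a23 and Cyp6a20 had SDs of 1.81, 1.09 and 0.91, and GstE11 and GstT4 had 1.22 and 1.14. Both families reached beyond set A: of 25 Cyp genes with a mean of at least 6, 5 were members, and so were 5 of 25 Gst genes, with Cyp4ac1 and GstD7 in set B and GstD5 in no set. These families were singled out after the members had been seen. MtnA, a metallothionein that binds copper and zinc, had log2 levels of 9.09, 9.48 and 11.26 with GFP dsRNA, 9.28, 10.11 and 11.1 with GFP dsRNA + LPS, 11.91, 9.01 and 9.6 with Tis11 dsRNA, and 9.43, 11.69 and 11.38 with Tis11 dsRNA + LPS. Unlike most of set A it was nearly as high on Tis11 dsRNA + LPS replicate 3 as on replicate 2. Alas, the enzyme of the initial step of heme synthesis, had an SD of 1.00.

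Set A also held signalling molecules and regulators, with SDs of 0.93 to 1.92. Daw, an activin-like ligand of the TGF-beta family, had log2 levels of 6.26, 9.12 and 10.46 with GFP dsRNA, 9.1, 7.0 and 10.41 with GFP dsRNA + LPS, 9.92, 5.94 and 8.55 with Tis11 dsRNA, and 8.55, 9.87 and 6.4 with Tis11 dsRNA + LPS. ImpL2, a secreted protein that binds insulin-like peptides and dampens insulin signalling, had log2 levels of 10.14, 11.62 and 12.16 with GFP dsRNA, 11.69, 10.57 and 12.06 with GFP dsRNA + LPS, 12.17, 10.1 and 11.64 with Tis11 dsRNA, and 11.6, 12.06 and 10.56 with Tis11 dsRNA + LPS. For both, 1 array per group stood far below the others, with a gap above the 4 lowest arrays of 1.54 for daw and 1.03 for ImpL2. Pvf2, a ligand of the PDGF and VEGF receptor homolog, had an SD of 1.05, and Traf4, an adaptor of receptor signalling towards JNK, one of 1.22. Hph, the prolyl hydroxylase that marks the hypoxia factor for destruction in normal oxygen, had log2 levels of 9.91, 11.37 and 11.45 with GFP dsRNA, 11.48, 9.86 and 11.32 with GFP dsRNA + LPS, 11.56, 9.96 and 11.35 with Tis11 dsRNA, and 11.49, 11.35 and 9.57 with Tis11 dsRNA + LPS. Transcription factors and clock-related genes in set A were sug, a zinc finger factor that responds to sugar feeding, with an SD of 1.11, Irbp18, a bZIP factor, with 1.07, Cipc with 1.13 and cu, the fly nocturnin, with 1.02.

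Protein folding in the endoplasmic reticulum was represented by Ero1L, an oxidase for disulphide bonds, which had log2 levels of 8.61, 9.68 and 10.55 with GFP dsRNA, 9.74, 8.75 and 10.48 with GFP dsRNA + LPS, 10.54, 9.1 and 9.79 with Tis11 dsRNA, and 9.87, 10.48 and 8.98 with Tis11 dsRNA + LPS. Sil1, a nucleotide exchange factor of the chaperone BiP, had an SD of 0.94. Other members were BI-1, a Bax inhibitor of the ER membrane, and stv, a co-chaperone of the BAG family, with SDs of 1.10 and 0.87. The 7 Hsp probe sets that the rule left out had SDs of 1.48 to 2.71. They correlated with the array scores with r of 0.77 to 0.93, so these 7 probe sets moved with set A.

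The largest SDs of named genes belonged to genes of other kinds. CG34330, whose function is not known here, had an SD of 1.98 and log2 levels of 8.5, 11.4 and 11.57 with GFP dsRNA, 11.38, 8.97 and 11.35 with GFP dsRNA + LPS, 11.82, 8.06 and 11.42 with Tis11 dsRNA, and 11.39, 11.7 and 7.1 with Tis11 dsRNA + LPS. It was low on 1 array per group, 2.39 below the next lowest array. Obp44a, of the odorant-binding protein family of small secreted carriers, had log2 levels of 6.19, 6.7 and 10.29 with GFP dsRNA, 6.48, 6.28 and 9.75 with GFP dsRNA + LPS, 9.42, 5.85 and 6.17 with Tis11 dsRNA, and 6.19, 9.06 and 6.12 with Tis11 dsRNA + LPS, and showed the reverse, 4 high arrays 2.36 above the other 8. A gap of more than 1 below the 4 highest arrays, with those arrays 1 per group, was present in 27 of the 191 members, and one above the 4 lowest arrays in 12. CG6330, fok, CG31769, MFS3, CG10814, CG16743, yellow-b, CG12520, CG7778, CG18190, CG14567, betaTub60D and CG14326 completed the named genes of set A with the largest SDs, at 1.87, 1.84, 1.76, 1.74, 1.73, 1.57, 1.56, 1.55, 1.54, 1.47, 1.43, 1.38 and 1.36. MFS3 is a membrane transporter of the major facilitator family, yellow-b belongs to the yellow family, and betaTub60D is a beta-tubulin. The alpha-tubulin alphaTub85E and ringer, a microtubule-binding protein, varied with it (SDs of 0.92 and 1.26). Genes of the fly blood-brain barrier, moody, a receptor, and Gli, a junction protein, had SDs of 0.87 and 0.89. The probe set with the highest SD, 2.53, is unnamed.

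**Figure D4:**
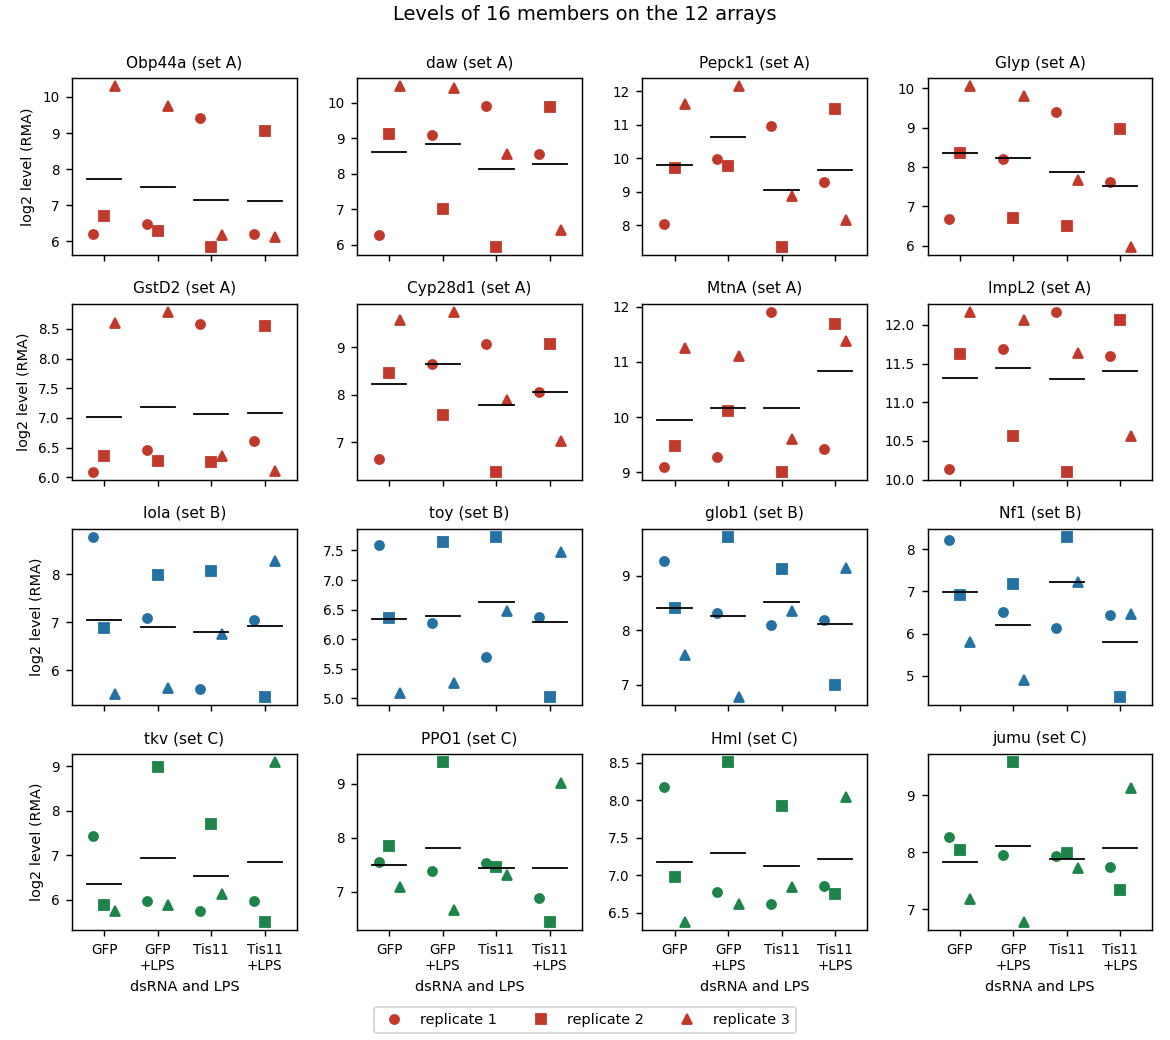
Log2 levels (y axis) of 16 members on the 12 arrays, by dsRNA and LPS (x axis). Symbols mark the replicate number, bars the group mean (n = 3), and colours the set. The groups overlap in every panel, and PPO1 and jumu of set C spread widely only in the LPS groups.

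Set B comprised the 53 probe sets that were low on the high-scoring arrays, with SDs of 0.82 to 1.40. None of the 53 lay above the group mean on GFP dsRNA replicate 3, GFP dsRNA + LPS replicate 3, Tis11 dsRNA replicate 1 or Tis11 dsRNA + LPS replicate 2, where the median deviations were -1.08, -1.05, -1.02 and -0.91. Among its named genes were several nuclear regulators. Lola, a BTB zinc finger factor with many isoforms, had log2 levels of 8.78, 6.87 and 5.51 with GFP dsRNA, 7.09, 7.99 and 5.64 with GFP dsRNA + LPS, 5.6, 8.07 and 6.75 with Tis11 dsRNA, and 7.04, 5.44 and 8.28 with Tis11 dsRNA + LPS. Toy, a Pax6 homolog of eye development, had log2 levels of 7.6, 6.35 and 5.09 with GFP dsRNA, 6.27, 7.64 and 5.25 with GFP dsRNA + LPS, 5.7, 7.73 and 6.47 with Tis11 dsRNA, and 6.37, 5.02 and 7.48 with Tis11 dsRNA + LPS. Each of them was lowest on the same 4 arrays on which set A was highest. Sbb, a transcriptional corepressor, Pabp2, the nuclear poly(A) binding protein, and PNUTS, a nuclear partner of protein phosphatase 1, had SDs of 0.91, 0.87 and 0.85.

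Further named genes of set B had varied functions. Nf1, neurofibromin, which switches off Ras, had log2 levels of 8.21, 6.92 and 5.81 with GFP dsRNA, 6.52, 7.18 and 4.9 with GFP dsRNA + LPS, 6.13, 8.29 and 7.22 with Tis11 dsRNA, and 6.44, 4.5 and 6.46 with Tis11 dsRNA + LPS. Msp300, a giant nesprin that ties nuclei to actin, Prosap, a Shank scaffold, DAAM, a formin that nucleates actin, and CRMP had SDs of 0.91, 0.91, 0.83 and 1.00. Glob1, a fly hemoglobin, had log2 levels of 9.28, 8.41 and 7.55 with GFP dsRNA, 8.32, 9.72 and 6.77 with GFP dsRNA + LPS, 8.09, 9.12 and 8.36 with Tis11 dsRNA, and 8.19, 7.0 and 9.15 with Tis11 dsRNA + LPS. The P450 gene Cyp4ac1 had log2 levels of 7.71, 6.45 and 5.27 with GFP dsRNA, 6.41, 7.92 and 4.9 with GFP dsRNA + LPS, 5.66, 8.13 and 6.53 with Tis11 dsRNA, and 6.24, 4.5 and 7.64 with Tis11 dsRNA + LPS and the highest SD of the set, 1.40. Proteases were present with teq and mmd, an ADAM metalloprotease (SDs of 0.99 and 0.88). The non-coding lncRNA:CR42862 was represented by 3 probe sets, with SDs of 1.04, 1.02 and 0.86, and r of 0.90 to 0.99 between them. Other named genes of the set with SDs above 1.04 were CG34331, CG31038, CG4829, CG3984, Pdzd8 and CG7142.

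Set C differed from both. Its 22 probe sets were all above the group mean on GFP dsRNA + LPS replicate 2 and Tis11 dsRNA + LPS replicate 3, with median deviations of 1.42 and 1.41, but on the arrays without LPS the median deviation stayed between -0.44 and 0.58. The median SD within a group was 0.59 for GFP dsRNA and 0.28 for Tis11 dsRNA, and 1.24 for each of the groups with LPS. In 18 of the 22, both LPS groups had a larger SD than both groups without LPS, against 30 of 105 in set A and 13 of 53 in set B. As the sets were formed from the same deviations, this describes them and was not tested.

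The genes of set C included markers of 2 hemocyte types. PPO1, a prophenoloxidase of crystal cells, had log2 levels of 7.54, 7.85 and 7.09 with GFP dsRNA, 7.38, 9.4 and 6.66 with GFP dsRNA + LPS, 7.52, 7.46 and 7.31 with Tis11 dsRNA, and 6.88, 6.43 and 9.01 with Tis11 dsRNA + LPS. PPO2, the other crystal cell prophenoloxidase, had log2 levels of 8.73, 9.92 and 9.67 with GFP dsRNA, 9.43, 10.75 and 9.31 with GFP dsRNA + LPS, 9.7, 8.57 and 9.33 with Tis11 dsRNA, and 8.99, 8.98 and 11.26 with Tis11 dsRNA + LPS. Hml, hemolectin, a clotting protein of plasmatocytes, had log2 levels of 8.18, 6.97 and 6.37 with GFP dsRNA, 6.78, 8.51 and 6.61 with GFP dsRNA + LPS, 6.61, 7.92 and 6.84 with Tis11 dsRNA, and 6.86, 6.75 and 8.04 with Tis11 dsRNA + LPS. PPO1 and Hml were both highest, within the LPS groups, on replicate 2 of GFP dsRNA + LPS and replicate 3 of Tis11 dsRNA + LPS, and so was PPO2. In samples of whole cultures, fewer cells of a type and less RNA per cell cannot be told apart. Of the 4 crystal cell markers with a mean of at least 6, 3 were members, but the third, Men, is a metabolic enzyme in many cell types and moved with set A. CG17109, which was not a member, had a mean of 6.15 and an SD of 0.39. The remaining measured markers, lz, klu and peb, had means of 3.44, 5.53 and 4.81, against array medians of 5.05 to 5.22. Over all 7 measured crystal cell markers, the mean log2 level of the list lay between 6.70 and 7.03 on the GFP dsRNA arrays, 6.92 and 7.18 with GFP dsRNA + LPS, 6.64 and 6.86 with Tis11 dsRNA, and 6.71 and 7.08 with Tis11 dsRNA + LPS. Of the 13 plasmatocyte markers, all with a mean of at least 6, 2 were members, Ppn and Hml, and 11 had r below -0.5 with the array scores, while crq, a scavenger receptor, had r of 0.84 and NimC1 -0.13. Their mean level was 9.83 to 10.24, 9.48 to 10.50, 10.24 to 10.67 and 9.69 to 10.45 in the same 4 groups. The 2 families left out by the rule besides Hsp gave Pxn and NimB4, both of plasmatocytes, with r of -0.92 and -0.90. Among lamellocyte markers, 1 of 7 with a mean of at least 6 was a member, Itgbn, the beta-nu integrin subunit, and 4 of the 7 had r above 0.5 and none below -0.5. The mean level of the 10 measured lamellocyte markers was 7.47 to 7.87, 7.31 to 8.24, 7.42 to 7.72 and 7.13 to 7.98. The part of these cell types in the variation was not tested.

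Tkv, a type I receptor of BMP ligands, had log2 levels of 7.43, 5.88 and 5.74 with GFP dsRNA, 5.97, 8.98 and 5.87 with GFP dsRNA + LPS, 5.75, 7.7 and 6.13 with Tis11 dsRNA, and 5.98, 5.49 and 9.1 with Tis11 dsRNA + LPS, the largest SD of set C (1.49). Jumu, a forkhead factor active in hemocytes, had log2 levels of 8.26, 8.03 and 7.18 with GFP dsRNA, 7.95, 9.58 and 6.77 with GFP dsRNA + LPS, 7.93, 7.99 and 7.72 with Tis11 dsRNA, and 7.74, 7.34 and 9.13 with Tis11 dsRNA + LPS. Both were high on the same pair of LPS arrays. Ppn, papilin, a matrix protein, fat-spondin, and yin, a peptide transporter, had SDs of 0.93, 1.22 and 0.97. Sas10, which takes part in the processing of ribosomal RNA, and Ak6 had SDs of 0.83 each. A probe set annotated to an 18S rRNA pseudogene, 18SrRNA-Psi:CR41602, had log2 levels of 8.53, 8.13 and 6.9 with GFP dsRNA, 7.93, 8.54 and 7.11 with GFP dsRNA + LPS, 7.45, 7.87 and 7.86 with Tis11 dsRNA, and 7.69, 7.4 and 10.52 with Tis11 dsRNA + LPS. The control probe sets for the 3′ and the 5′ end of 18S rRNA differed on the same arrays by 1.76, 2.10 and 1.79, 2.45, 0.75 and 1.21, 0.97, 2.32 and 2.60, and 2.13, 0.75 and 0.30 log2 units, in the same order of groups and replicates. The same difference for actin lay between 0.43 and 0.75, for GAPDH between 0.28 and 0.66 and for eIF-4a between 0.11 and 0.67. Tis11 dsRNA + LPS replicate 3 was the highest array for actin and eIF-4a, at 0.75 and 0.67. GFP dsRNA + LPS replicate 2, the other array on which set C was high, came next with 0.68 and 0.42. For GAPDH these arrays had 0.29 and 0.45, in the same order. The part of these end differences in the variation between repeats, and in that of set C, was not tested.

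The 11 probe sets outside the sets had no more than 54.4% of their sum of squares on the leading component, the most being that of lncRNA:alphagamma-element:CR32865, which was high on the same 4 arrays as set A. Sox100B, an SRY-box factor, had log2 levels of 6.13, 7.64 and 5.89 with GFP dsRNA, 7.7, 4.22 and 5.93 with GFP dsRNA + LPS, 6.69, 6.26 and 7.44 with Tis11 dsRNA, and 7.58, 5.77 and 3.75 with Tis11 dsRNA + LPS. Its highest value in each group was on the array with the intermediate score. CG10126, CG13937, CG32017, CG9338, mthl10, M7BP, sdt, GstD5 and lncRNA:alphagamma-element:CR32865 had SDs of 1.31, 1.04, 0.93, 0.83, 0.86, 0.86, 0.82, 1.11 and 1.29, and 1 probe set of the 11 is unnamed.

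Other probe sets of the same genes, which the rule did not take, show how far the variation belonged to the gene and how far to the probe set. Of the 160 genes, 29 had a further probe set, and in 3 genes (stac, regucalcin and lncRNA:CR42862) 2 or more were members, with r of at least 0.90 between them. Among 58 further probe sets outside the members, 27 had a mean of at least 6, and their deviations correlated with those of the member with a median r of 0.83, over 0.8 in 15 of 27. For BI-1 the second probe set, with a mean of 11.27 and an SD of 0.52, had r of 0.97, and for CG30022 one with an SD of 0.80 had r of 0.99. Lola had 14 further probe sets, 12 of them with a mean of at least 6, with r of 0.21 to 0.95 and SDs of 0.26 to 0.80. Tkv and sbb each had a further probe set that moved the opposite way, with r of -0.86 and -0.97 and SDs of 0.40 and 0.18. The second of 2 further probe sets of Nf1 had r of 0.11, so for these genes the result holds for the probe set and not for every transcript.

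In the gene order of the RefSeq annotation (Release 6), 7 pairs of member genes lay next to each other or 1 gene apart. CG7381 and CG7091, CG6912 and CG3984, Dph1 and CG11658, and yin and CG2930 moved together with r of 0.96, 0.95, 0.93 and 0.90. CG32037 and path had r of 0.76, whereas Pabp2 and Obp44a, direct neighbours, had r of -0.77 and GstD5 and GstD7 one of -0.49. Among genes with a mean of at least 6, members made up 2.3% to 2.9% on the large chromosome arms and 3 of 38 on chromosome 4.

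Gene lists showed the same axis beyond the members. Over all 5903 genes with a mean of at least 6, 32.7% had r above 0.5 and 32.7% r below -0.5 with the array scores, with a median of -0.02, so a large share of expressed genes followed the repeats. Of 11 genes of glycolysis and lactate, all 11 had r above 0.5 (median 0.85), but only Pfk was a member, and their median SD was 0.39 against 0.26 over all genes. In the list of ER stress and protein folding, 10 of 12 had r above 0.5 (median 0.88), with Sil1 and Ero1L as members. Of 17 genes of the oxidative and xenobiotic response, 10 had r above 0.5 and 3 r below -0.5, with GstD2, Cyp28d1 and GstD5 as members. Genes of growth went the opposite way without being members: 14 of 15 of ribosome biogenesis and 7 of 8 of S phase and mitosis had r below -0.5 (medians -0.76 and -0.92), with median SDs of 0.41 and 0.48. Nutrient and hypoxia stress had 6 of 10 above 0.5 and 2 below -0.5, and the amino acid list 9 and 2 of 13, with Hph and path as members. In the metal response both genes with a mean of at least 6 had r above 0.5. The basement membrane list had 7 of 12 below -0.5 and 2 above 0.5, with Ppn as the member, and the ecdysone list 3 of 7 below -0.5 and 1 above, with ImpL2 as the member. No gene of the lists of lipid synthesis, circadian clock, phagocytosis, JAK-STAT, JNK, actin and muscle, neuron or gut genes was a member, and none of 7 measured fat body genes reached a mean of 6. The genes of a list share the 12 arrays, so these counts describe 1 pattern of arrays and not so many separate observations.

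The rule could be applied to the arrays without LPS and measured on those with LPS. Of 200 probe sets chosen on the 6 arrays without LPS, 101 (50.5%) were also among the top 200 on the 6 LPS arrays, the top 200 being 2.78% of the 7194. Their median SD on the LPS arrays was 0.89 against 0.28 for the others, and 199 of 200 lay above the median of all probe sets. Chosen on the LPS arrays, the 200 had a median SD of 0.78 without LPS against 0.20. These are separate hybridisations, but whether their cultures were separate is not stated.

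The design asks how depletion of Tis11 and LPS change expression, and for these genes the spread within groups set the errors of every answer. By limma on the 6 arrays of a comparison, with Benjamini-Hochberg adjustment over 18769 probe sets, no member passed an adjusted p of 0.05 in any of the 4 comparisons or in their interaction. The calls over all probe sets amounted to 0.0% for Tis11 kd without LPS, 0.0% for Tis11 kd with LPS, 0.0533% (10 probe sets) for LPS in GFP kd, 0.0799% (15 probe sets) for LPS in Tis11 kd and 0.0% for the interaction. At an unadjusted limma p under 0.05 there were 2, 1, 3 and 9 members in the 4 comparisons, 1.05%, 0.52%, 1.57% and 4.71%, against 2.06%, 2.06%, 2.46% and 4.03% of the 6994 other probe sets, and 0 for the interaction. The median standard error of the members' differences was 0.61, 0.70, 0.67 and 0.60, against 0.15, 0.20, 0.18 and 0.18 for the others. Because members were chosen for their spread, the wide errors follow from the choice. No fit matched the arrays by the 3 sets of 4 described above, which the labels do not name. Differences shared by the arrays of such a set therefore stayed in these errors.

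Differences of the members are given beside those of all probe sets as a description, because the choice by spread makes large differences more common and separated groups rarer, and nothing about the treatments is read from the shares. After Tis11 kd without LPS, 12 members (6.28%) differed by more than 0.5 upwards and 10 (5.24%) downwards, against 0.653% and 0.236% of all probe sets averaging at least 6. With LPS, Tis11 kd gave 6 upwards (3.14%) and 17 downwards (8.90%), against 0.222% and 0.862%. LPS in GFP kd gave 26 (13.6%) and 18 (9.42%), against 2.06% and 0.82%, and LPS in Tis11 kd 29 (15.2%) and 40 (20.9%), against 1.4% and 2.84%. The 3 arrays of both groups did not overlap in 2, 0, 1 and 3 members (1.05%, 0.00%, 0.524% and 1.57%), against 4.14%, 4.84%, 4.93% and 7.33%. The median difference was -0.05, -0.16, 0.06 and 0.00, against 0.01, -0.08, 0.01 and -0.08 for the others. Members of a set move together, so a direction common to a set, such as 20 of 105 probe sets of set A above 0 after Tis11 kd without LPS or 9 of 53 of set B above 0 after LPS in Tis11 kd, counts as little more than 1 observation. The comparisons share groups and are not independent.

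**Figure D5:**
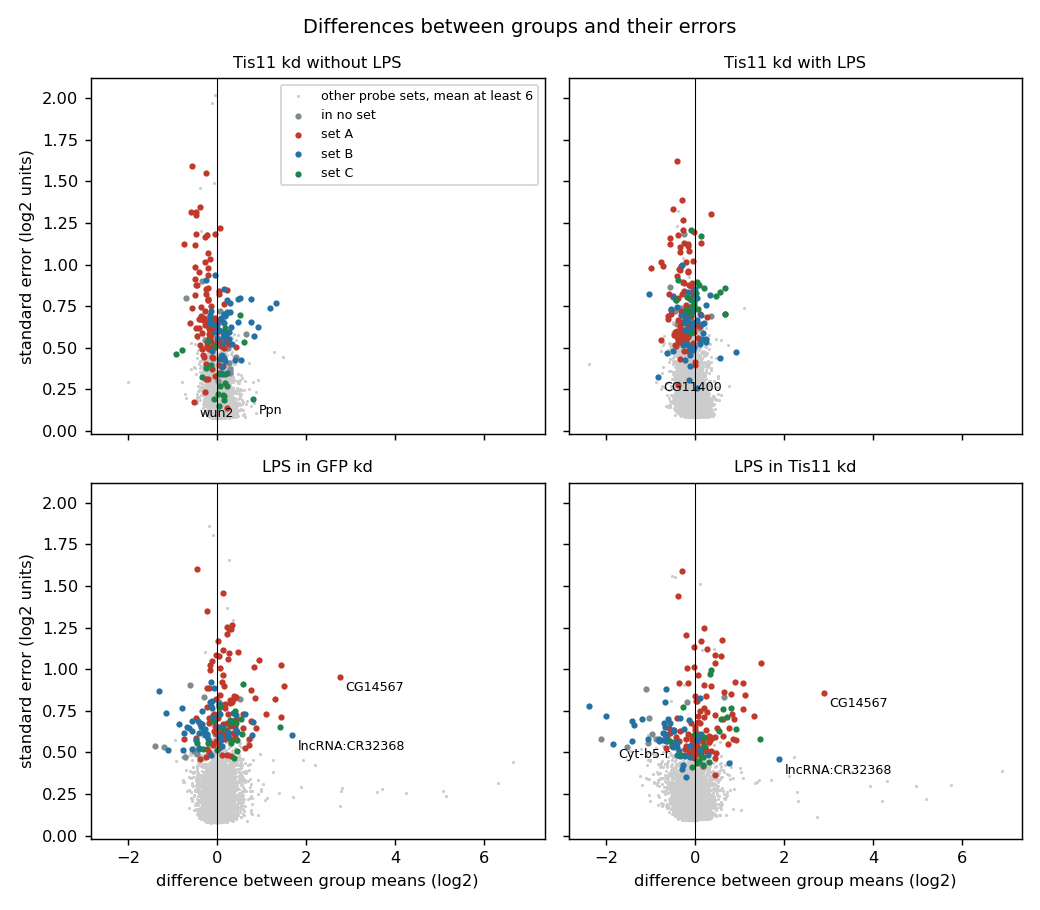
Difference between group means (x axis, log2) against its standard error (y axis, limma) in the 4 comparisons, with 3 arrays per group. Coloured points are the members by set and grey points the other probe sets averaging at least 6. Members have standard errors of 0.14 to 1.62, and CG14567 and lncRNA:CR32368 lie farthest to the right among them after LPS.

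The members described next were those with an unadjusted limma p under 0.05 or with groups that did not overlap. CG14567, of unknown function here, had log2 levels of 5.85, 5.59 and 6.01 with GFP dsRNA, 8.32, 6.65 and 10.78 with GFP dsRNA + LPS, 6.13, 6.15 and 5.87 with Tis11 dsRNA, and 9.13, 10.79 and 6.9 with Tis11 dsRNA + LPS. The 6 arrays without LPS lay within 5.59 to 6.15 and the 6 with LPS between 6.65 and 10.79, so the spread that made it a member came from the LPS groups. It was higher after LPS by 2.77 ± 0.95 (SE, n = 3 per group) in GFP kd and by 2.89 ± 0.86 in Tis11 kd, without overlap of the groups, but with a limma adjusted p of 1 in both. LncRNA:CR32368 had log2 levels of 9.57, 8.13 and 7.17 with GFP dsRNA, 9.95, 10.5 and 9.48 with GFP dsRNA + LPS, 7.2, 9.22 and 7.99 with Tis11 dsRNA, and 10.1, 9.82 and 10.16 with Tis11 dsRNA + LPS, and differed by 1.69 ± 0.60 in GFP kd and 1.89 ± 0.46 in Tis11 kd, with overlap in the former and none in the latter (limma adjusted p of 1 in both). In Tis11 kd, Cyt-b5-r, a cytochrome b5-like protein, was lower after LPS by 1.85 ± 0.55 with overlapping groups, and yin was 1.47 ± 0.58 higher. CG10026 and CG9338 differed by -1.42 ± 0.57 and -1.53 ± 0.53 there, and 3 unnamed probe sets by -1.99, -2.38 and -2.12, of which the last did not overlap. In GFP kd, 1 of these unnamed probe sets differed by -1.40 ± 0.54, with overlap. Each of these had a limma adjusted p of 1. Differences of similar size with a larger error, such as 1.49 ± 0.90 in GFP kd and 1.48 ± 1.04 in Tis11 kd for CG7778, did not meet this limit.

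For the depletion of Tis11, Ppn had log2 levels of 7.12, 7.47 and 6.94 with GFP dsRNA, 6.96, 8.61 and 5.66 with GFP dsRNA + LPS, 7.66, 8.09 and 8.21 with Tis11 dsRNA, and 7.83, 6.5 and 8.59 with Tis11 dsRNA + LPS. It was higher after Tis11 kd without LPS by 0.81 ± 0.19 with no overlap, and wun2, a lipid phosphate phosphatase, was lower by 0.52 ± 0.17 with no overlap, both with a limma adjusted p of 1. With LPS the groups overlapped for both genes. CG11400 differed by -0.83 ± 0.33 in LPS-treated cells, with overlap. Larger differences with wider errors were 1.33 ± 0.77 for CG2444 and 1.2 ± 0.74 for Swim without LPS, and -1.03 ± 0.82 for an unnamed probe set and -0.99 ± 0.98 for Pepck1 with LPS, all with overlapping groups. The interaction, which asks whether LPS acts differently after Tis11 kd, had differences of -1.23 to 0.91 in the members with a median standard error of 0.99, and the lowest limma adjusted p was 1.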

How the data were processed

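SL2 cells were treated with dsRNA against GFP or Tis11, with or without LPS, in 3 biological repeats each, and gene expression was measured on 12 arrays. The deposited values are log2 levels, which the authors made by RMA (background correction, quantile normalization, median polish) in RMAExpress. The sources used here do not state if the 12 arrays went through RMA jointly. Array precision is limited by their number, and p-values set differences of group means against the spread between these samples.

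Of 18952 rows, 183 control probe sets were left out of ranking and tests, and 18769 remained. Genes came from the platform annotation (13647 probe sets with 1 gene, 402 with several, 4720 with none), and 13544 of the former had their gene ID in the RefSeq table. The pooled SD within groups has 8 degrees of freedom. Deviations from group means were decomposed by singular values and clustered by average linkage on 1 minus Pearson r at a height of 0.5, and sets of at least 8 were described. Differences were fitted with limma 3.58.1 in R 4.3.3, without a replicate block, and tried on simulated data with independent noise for each probe set. That simulation lacks the variation shared between genes described above, so it does not show how the fit performs under it. Alternatives were another level limit, scaling, linkage, a replicate block, 1 fit over all arrays, an intensity trend, the methods' t-test and leaving out each array. Python 3.11.15 with numpy 2.4.6, pandas 2.3.3, scipy 1.17.1 and matplotlib 3.10.9 did the rest.

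The members, gene lists and tests were chosen with earlier results of these data known. Named genes were the 25 with the largest SD, up to 8 per set, members of the lists, those next to the limit and those with further probe sets, and members standing out in a comparison, which were picked after their values were seen, as were other members named by function. Glob1, entered in the matrix list by mistake, was taken out of it afterwards.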

Additional observations from a re-analysis of the deposited data

How the results depend on the processing

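Most of the 191 members were chosen again under the alternatives. A level limit of 7 kept 142, a number fixed in advance because 49 members had a level of 6 to 7. With a limit of 5 it was 152. Centred or requantiled arrays, the replicate block or absolute deviations gave 177 to 189, and leaving out 1 array gave 165 to 190. The leading component carried 74.5% of the sum of squares after scaling each probe set to an SD of 1, and 74.1% to 82.5% without 1 array. Complete linkage gave 7 sets in place of 3.

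No member passed limma's adjusted p of 0.05 in any comparison under these settings, except CG7778 for LPS in Tis11 kd without Tis11 dsRNA + LPS replicate 3, so members called there ranged from 0 to 1 without 1 array. Calls over all probe sets were few. For LPS in GFP kd there were 10, which became 0 to 14 without 1 array (0 without GFP dsRNA replicate 2) and 1 by the methods' t-test after Benjamini-Hochberg adjustment. For LPS in Tis11 kd there were 15, which became 6 to 26 without 1 array (26 without Tis11 dsRNA + LPS replicate 3) and 0 by that t-test. The cause was not tested.

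Same-numbered arrays did not consistently deviate together: r over the members ran from -0.92 to 0.92 for the 18 pairs, above 0.1 in 5. No array correlated best with its own number in all other groups. The replicate block left 4 calls for LPS in Tis11 kd, 13 for LPS in GFP kd and none for the others.

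For members with an unadjusted limma p under 0.05 or groups that did not overlap, all 195 alternative values kept their direction. The replicate block, the fit over all arrays, the t-test, the level limit and the intensity trend left each difference unchanged. Under those settings the direction could not change. All 195 values also stayed above the adjusted p of 0.05, which none of these members had passed in the main fit. As the members were picked for a low p or separated groups, the count of 195 does not measure robustness. Members named only for differences with wider errors, such as CG7778, were not among these values.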
